A study of Mus musculus with 12 samples.

Results

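β-Catenin and H3K27ac peaks were examined around 41 genes that send and receive WNT signals: 19 WNT ligands, 10 Frizzled receptors, the co-receptors Lrp5 and Lrp6, the alternative receptors Ror1, Ror2 and Ryk, 4 R-spondins and 3 LGR receptors. The genes were taken as a list of names, out of 21911 protein-coding genes on chromosomes 1 to 19, X and Y, and a peak summit counted for a gene when it lay within 50 kb of the gene body. A summit in the windows of neighbouring genes counted once in the totals. Forelimb buds came from WT Swiss Albino embryos at E10.5, 6 h after injection of the solvent DMSO (wild-type control) or of C59 at 10 µg/g body weight. All groups shared this genotype and age, every replicate was a pool of 20 buds, and each antibody and treatment had 2 replicates. C59 blocks porcupine, the enzyme that attaches the lipid WNT ligands need for secretion, in all tissues of the embryo, so the groups do not separate ligands of ectoderm and mesenchyme.

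Secreted WNT ligands bind a Frizzled receptor together with LRP5 or LRP6, which stabilises β-catenin so that it can reach chromatin through TCF/LEF transcription factors. ROR1, ROR2 and RYK receive WNT ligands in other ways, with WNT5A as the best known partner of ROR2 in the limb bud. R-spondins bind LGR receptors and keep ZNRF3 and RNF43 from removing Frizzled receptors from the cell surface. H3K27ac marks active promoters and enhancers.

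The summits that carried the TCF/LEF core, ATCAAAG or TTCAAAG on either strand, are shown first, because this is the sequence by which TCF/LEF factors bring β-catenin to DNA. Each line gives 41 bases around the core nearest to a β-catenin summit of wild-type controls, read 5′ to 3′ on the strand of the core from GRCm38 (mm10), with the core in capitals. The 8 genes are those with the strongest core-bearing summits among the 12 genes described in full.
Wnt10a, intron of Wnt10a, chr1:74797603-74797643, plus strand: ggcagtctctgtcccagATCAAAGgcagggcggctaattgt
Ror2, intron of Ror2, chr13:53154064-53154104, plus strand: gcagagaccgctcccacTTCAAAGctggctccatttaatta
Ror1, intron of Ror1, chr4:100236585-100236625, plus strand: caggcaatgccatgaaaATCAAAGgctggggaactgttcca
Wnt2b, intergenic, chr3:104967698-104967738, plus strand: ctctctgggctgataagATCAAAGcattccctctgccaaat
Fzd2, intergenic, chr11:102595615-102595655, minus strand: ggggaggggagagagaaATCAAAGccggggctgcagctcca
Rspo1, intron of Rspo1, chr4:124989817-124989857, plus strand: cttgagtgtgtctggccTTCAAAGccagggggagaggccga
Wnt6, intergenic, chr1:74770933-74770973, minus strand: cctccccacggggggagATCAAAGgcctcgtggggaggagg
Fzd10, intergenic, chr5:128600434-128600474, minus strand: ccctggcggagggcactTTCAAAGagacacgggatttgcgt

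Further sites were chosen after their values were seen, to show the core in the R-spondin and LGR groups and the summit with a core at the start of Wnt11.
Rspo2, intron of Rspo2, chr15:43059307-43059347, plus strand: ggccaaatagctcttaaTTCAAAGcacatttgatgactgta
Lgr5, intron of Lgr5, chr10:115586626-115586666, plus strand: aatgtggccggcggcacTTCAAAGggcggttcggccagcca
Lgr4, intron of Lgr4, chr2:109992473-109992513, minus strand: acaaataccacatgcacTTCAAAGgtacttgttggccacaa
Wnt11, intergenic, chr7:98835044-98835084, plus strand: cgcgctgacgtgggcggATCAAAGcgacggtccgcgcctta

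In wild-type controls, 108 β-catenin summits of replicate 1 and 140 of replicate 2 lay near these genes, and the consensus list, called on both replicates together, held 90. In C59-treated forelimb buds, replicate 1, replicate 2 and the consensus list each held 0. The groups therefore did not overlap, and the loss spanned ligands, receptors, R-spondins and LGR receptors alike. It was not particular to them: over the whole genome 1.12% of the wild-type consensus summits lay inside a peak of the C59 consensus list, against 0 of 90 near these genes (95% Wilson interval up to 4.09%, counting error only). A summit in any C59 list lay near 1.34% of all protein-coding genes and near 0 of the 41, a count too small to set apart from that share. With 2 replicates against 2, the exact two-sided permutation test cannot give a p below 0.33, so none is given.

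The C59 lists also ended at stronger p-values, although the q limits of the replicate lists were similar. The lowest −log10 q was 1.30 and 1.30 in the wild-type replicates and 1.31 and 1.41 in the C59 replicates. The weakest summit listed on the same chromosomes had a −log10 p of 3.89 and 3.79 in the wild-type replicates and of 5.69 and 5.76 in the C59 replicates. Where only background coverage was expected, 8 fragments sufficed in wild-type controls and 11 after C59, which corresponds to a fold enrichment of 4.24 and 4.26 in the C59 replicates. Of the member summits, 96 of 108 in replicate 1, 120 of 140 in replicate 2, and 83 of the 90 consensus summits in both replicates reached the C59 limit. Weaker sites could have escaped the C59 lists, so an empty list does not show that no β-catenin was bound. Depth was similar in all but wild-type replicate 1, with a background coverage of 1.57 and 1.81 fragments in the wild-type β-catenin libraries and 1.83 and 1.82 after C59.

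A consensus summit lay near 30 of the 41 genes (73.2%), whereas the same window held one for 43.5% of all protein-coding genes. Both wild-type replicates held more summits than both C59 replicates for 31 genes (75.6%), beside 49.0% of all protein-coding genes. The windows were of similar size, with a median of 122.7 kb for the 41 genes and 117.4 kb for all genes, and the density of summits was 15.2 per Mb in the joined windows of the 41 genes and 6.56 per Mb in those of all genes. Ror1 and Ror2, whose gene bodies are long, held 26 of the 90 summits, and without them the density was 12.4 per Mb. Counting from the start of the gene alone, 50 kb to either side, 24 of 41 genes (58.5%) and 35.5% of all genes had a summit.

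**Figure D1:**
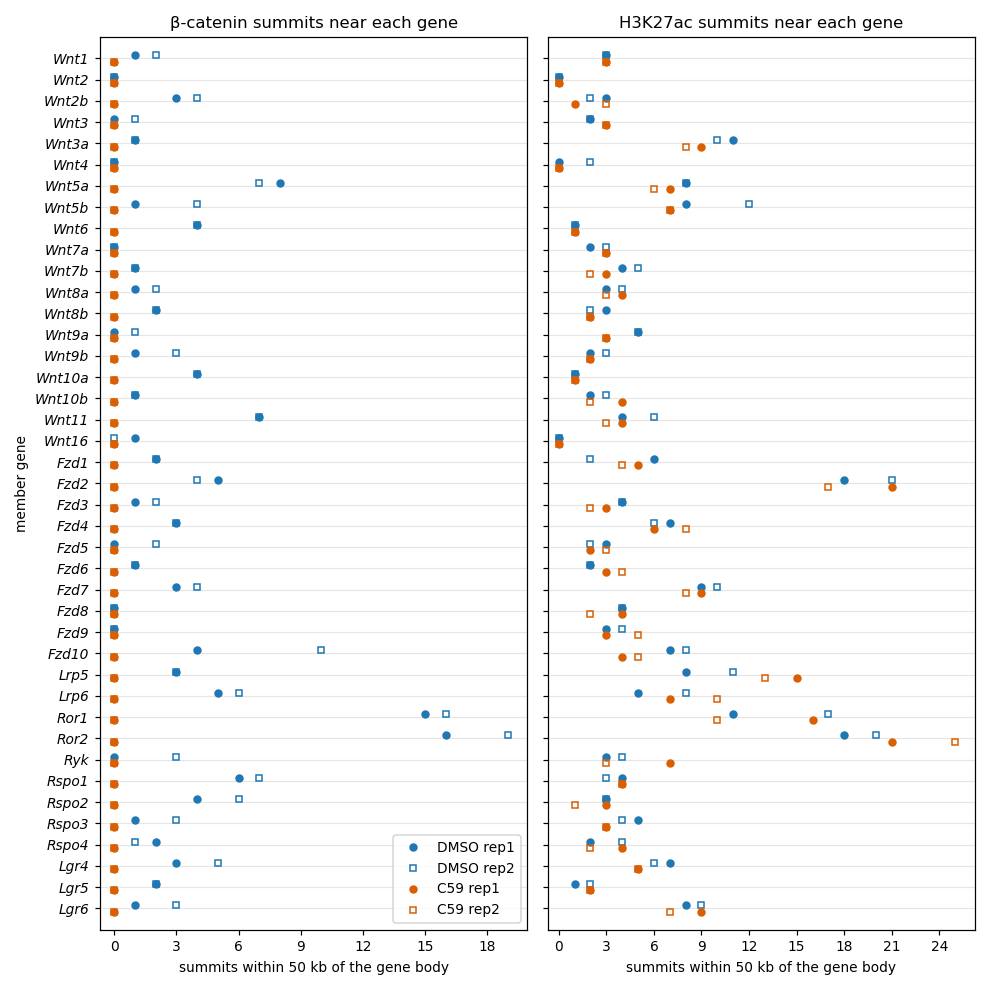
Number of β-catenin summits (left) and H3K27ac summits (right) within 50 kb of each of the 41 genes in the 2 DMSO replicates (blue) and the 2 C59 replicates (orange), with filled circles for replicate 1 and open squares for replicate 2. All orange points of the β-catenin panel lie at 0, whereas DMSO and C59 points of the H3K27ac panel mostly lie side by side, with 194 and 220 summits in total in DMSO and 207 and 190 in C59.

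Of the 11 genes without a consensus summit, Wnt2, Wnt4, Wnt7a, Fzd8 and Fzd9 had none in either wild-type replicate. Wnt3, Wnt9a, Wnt16, Fzd5 and Ryk had summits in 1 replicate, and Wnt5b had 1 and 4 summits that did not enter the consensus. The strongest summit assigned to each of the 12 genes described in full had a fold enrichment from 9.91 at Wnt3a to 24.1 at Wnt10a, where fold enrichment is the coverage at the summit over the coverage macs2 expected there. The next gene below that limit was Rspo2, with 9.60. The other 17 genes with assigned summits had a strongest fold enrichment between 4.76 and 9.60.

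**Figure D2:**
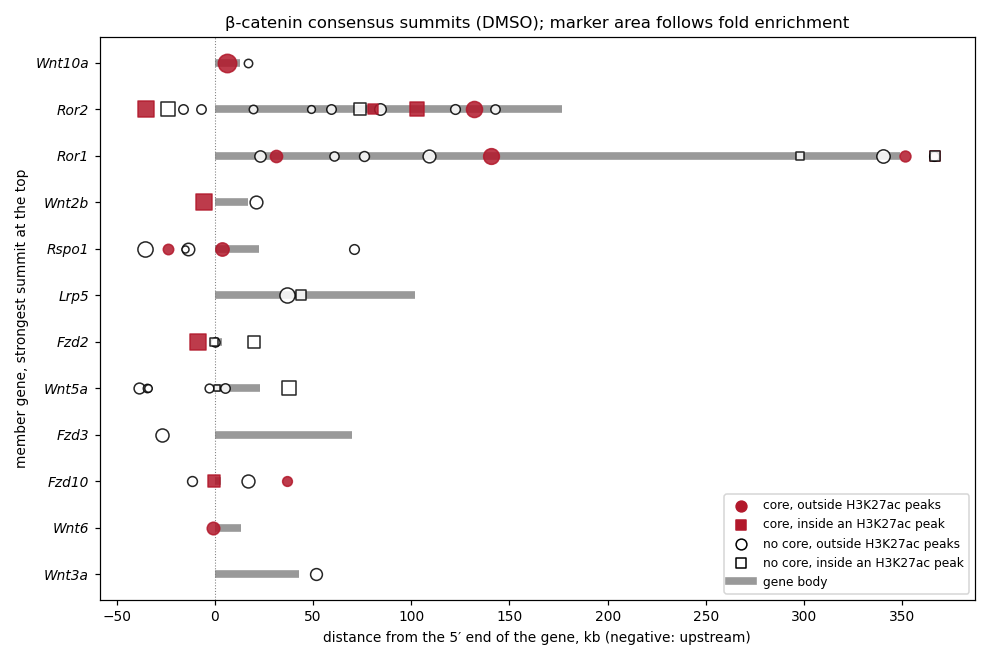
Wild-type β-catenin consensus summits of the 12 genes with the strongest summits, by distance in kb from the 5′ end of the gene (negative is upstream), where grey bars are gene bodies, marker area follows fold enrichment, red marks a TCF/LEF core within the 200 bp window and squares lie inside an H3K27ac consensus peak of DMSO. Ror1 and Ror2 carry 12 and 14 summits along and around their gene bodies, and the strongest summit, with a fold enrichment of 24.1, lies 6.11 kb into Wnt10a.

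Among the ligands, 12 of 19 had a consensus summit and 23 summits were assigned to them. Wnt10a, a ligand of the limb ectoderm and ridge, had the strongest of all 90. That summit, at chr1:74797629 in an intron of the gene, reached a fold enrichment of 22.8 with 104 fragments in replicate 1 and 21.3 with 119 fragments in replicate 2. It lay 6 bp from its core, and in none of the 4 H3K27ac replicates was it inside a peak. Wnt10a had 4 summits in both wild-type replicates, but part of its window is shared with Wnt6, which lies just upstream on the same strand and also had 4 and 4. Wnt6, likewise an ectodermal ligand, had its own summit at chr1:74770960, 0.932 kb before the gene, with a fold enrichment of 9.62 and 10.9 in the replicates and 2 cores in the window. It too lay outside H3K27ac peaks.

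Wnt2b had 3 and 4 summits in the wild-type replicates. Its strongest, at chr3:104967761 and 5.84 kb upstream of the gene, reached 15.6 and 16.2 and carried a core. In contrast to the Wnt10a summit, it lay inside strong H3K27ac peaks, with an H3K27ac fold enrichment of 18.1 and 16.7 in the controls against 17.4 and 13.6 after C59, so the acetylation peak was listed in every library while β-catenin was listed in wild-type controls alone. Wnt5a, expressed in the distal limb mesenchyme, had 8 and 7 summits. The strongest, at chr14:28542400 and 37.65 kb beyond the start of the gene, reached 14.6 and 9.99 without a core. This site was inside H3K27ac peaks with a fold enrichment of 6.16 and 4.70 in the DMSO replicates and of 4.35 and 3.29 in the C59 replicates, a small difference without overlap that was not tested. Wnt3a had 1 summit in both replicates, of 9.30 and 10.6, at chr11:59239246. It had no core, and the nearest protein-coding TSS was that of Arf1.

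Wnt11 had 7 summits in both wild-type replicates and 4 in the consensus. The one at its TSS, 0.059 kb upstream, was weak, with a fold enrichment of 4.53 and 4.17, yet held a core. Apart from Wnt11, summits less than 0.1 kb from the start of a gene, at Fzd1, Fzd2 and Lrp6, had no core in the window.

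Of the 10 Frizzled receptors, 7 had a consensus summit, with 18 summits in total. Fzd2 had 5 and 4 summits in the wild-type replicates. Its strongest, at chr11:102595626 and 8.77 kb upstream of the gene, reached 17.4 and 14.1, with 2 cores in the window. H3K27ac peaks covered it in all 4 replicates, with 7.23 and 6.54 in the DMSO replicates and with 8.97 and 7.59 in the C59 replicates. Both C59 values were thus higher, a difference without overlap that was not tested. Fzd10 had 4 and 10 summits, the widest gap between replicates of any of the 41 genes. Its strongest summit, at chr5:128617840 and 17 kb from the start of the gene, reached 12.1 and 11.0 and had no core. A second one, 0.451 kb upstream of the gene, reached 9.09 and 8.32, had 2 cores and lay inside H3K27ac peaks of both treatments. Fzd3 had 1 and 2 summits, and the strongest, 11.4 and 9.43 at chr14:65289336, lay in an intron of the neighbouring gene Fbxo16, had no core and was outside H3K27ac peaks.

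Both LRP co-receptors, which are needed with Frizzled for signaling to β-catenin, had summits. Lrp5 had 3 in both wild-type replicates. Its strongest summit, at chr19:3650001 in an intron of the gene, reached 13.2 and 14.0 without a core and outside H3K27ac peaks. Lrp6 had 5 and 6 summits, none above a consensus fold enrichment of 7.55.

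Ror1 and Ror2 had more summits than any other of the 41 genes, 15 and 16 at Ror1 and 16 and 19 at Ror2 in the wild-type replicates, while Ryk had 0 and 3. The strongest summit of Ror2, at chr13:53154066 in an intron, reached 14.3 and 20.6 and had a core. Further Ror2 summits at 34.95 kb and 23.78 kb upstream of the gene had consensus values of 16.9 and 15.2, lay inside H3K27ac peaks in all 4 replicates, and the first of them had a core. Ror1 had its strongest summit at chr4:100236561, also in an intron and with a core, at 13.2 and 17.8. It lay outside H3K27ac peaks. The 0.726 Mb spanned by the joined windows of Ror1 and Ror2 held 35.8 summits per Mb, compared with 5.94 per Mb over chromosomes 1 to 19, X and Y.

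All 4 R-spondins and all 3 LGR receptors had a consensus summit. Rspo1 had 6 and 7 summits in the wild-type replicates. The strongest, at chr4:124950809 and 35.6 kb upstream of the gene, reached 15.4 and 13.3 without a core, and the nearest protein-coding TSS belonged to 9930104L06Rik. The core-bearing summit in its intron, printed above, reached 9.23 and 11.9. Rspo2, which acts in limb outgrowth, had 4 and 6 summits, with 7.58 and 8.46 at the site with the highest consensus value. Another intronic Rspo2 summit, at chr15:43106398 with 3 cores, had 5.33 and 11.2, a wide gap between replicates. Lgr5, widely used as a WNT target gene, had 2 summits in both replicates, among them the core-bearing site 1.15 kb from its start with 8.13 and 5.53. Lgr4 had 3 and 5 and Lgr6 had 1 and 3.

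**Figure D3:**
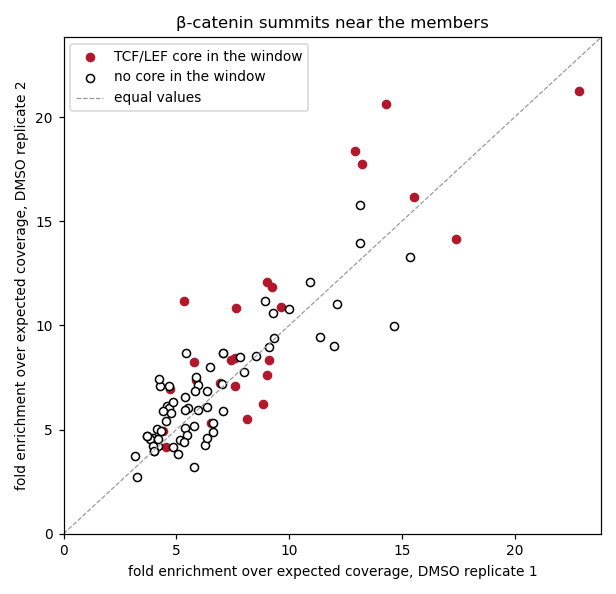
Fold enrichment of the 90 β-catenin consensus summits near the 41 genes in DMSO replicate 1 (horizontal axis) and replicate 2 (vertical axis), with filled red points for summits whose 200 bp window holds a TCF/LEF core and open points for the others. The points lie around the dashed line of equal values, and the point farthest to the right is the Wnt10a summit, with 22.8 and 21.3. Consensus summits had to be found in both replicates, so their agreement is partly set by that choice. Of all replicate summits near these genes, 85 of 108 in replicate 1 and 87 of 140 in replicate 2 lay inside a peak of the other replicate. Summits of the same peak region share their replicate values.

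Of the 90 windows of 200 bp centred on consensus summits, 26 held a core (28.9%, 95% Wilson interval 20.5 to 39.0%), and 22 of these 26 had it within 50 bp of the summit. Over all consensus summits the share was 28.6%, so these genes did not stand apart, whereas windows 2 kb to either side of the same summits held a core in 13 of 180 cases (7.22%). Strong summits held cores more often, with 10 of 21 at a fold enrichment of 10 or more and 16 of 69 below it, next to 40.4% and 25.5% over the whole list. The difference near these genes was not tested, and the intervals, 28.3 to 67.6% and 14.8 to 34.4%, overlap. Of the 31 cores in these windows, 16 were ATCAAAG and 15 TTCAAAG, and 20 of 31 (64.5%) were followed by G or C, close to the 63.0% over all summits. RefSeq promoter sequences on GRCm38.p6, which cover the start of a gene and the bases just before it, matched 28 of the 41 genes, and 2 of their 31 promoters, those of Wnt5b and Wnt11, held a core, compared with 8.65% of all promoters in that table.

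Most summits lay away from promoters, as in the whole list. Within 1 kb of any protein-coding TSS were 16 of the 90 (17.8%), beside 13.4% of all wild-type consensus summits. By annotation, 42 were in introns, 34 of them of a listed gene, 44 were intergenic, 4 in UTRs and 0 in coding exons. In all, 59 of 90 were more than 10 kb from the nearest protein-coding TSS, and for 64 that TSS belonged to a listed gene, so the other 26 may as well be counted to a neighbour. A β-catenin region lay within 1 kb of a TSS for 9 genes (22.0%), namely Wnt5a, Wnt6, Wnt11, Fzd1, Fzd2, Fzd7, Fzd10, Lrp6 and Lgr5, and for 9.38% of all protein-coding genes.

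Unlike β-catenin peaks, most H3K27ac peaks near these genes were still listed after C59, which does not show that their signal was unchanged. Near them the wild-type replicates held 194 and 220 H3K27ac summits and the C59 replicates 207 and 190, so the groups overlapped. Of the 172 wild-type consensus summits, 157 (91.3%) lay inside a peak of the C59 consensus list, compared with 89.1% over the genome. The same was seen at β-catenin sites themselves. Of the 90, 19 were inside an H3K27ac peak in all 4 replicates, 58 in none, 0 in both wild-type replicates and neither C59 replicate, and 1 the other way round. The other 12 were inside a peak in some other combination of replicates, and the 58 had no listed peak to compare between treatments. Consensus H3K27ac peaks covered 27 of the 90 in wild-type controls and 30 after C59 (33.3%), where the shares of all β-catenin summits were 22.1% and 23.0%. The H3K27ac libraries had a background coverage of 2.69 and 2.89 fragments for DMSO and of 3.17 and 2.98 for C59.

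An H3K27ac region lay within 1 kb of a TSS for 19 of the 41 genes (46.3%) in wild-type controls and 18 (43.9%) after C59, and for 52.5% and 51.4% of all protein-coding genes. Marked promoters were unevenly spread over the roles. Receptors were mostly marked, with 8 of 10 Frizzled genes, both LRP genes and all of Ror1, Ror2 and Ryk in both treatments, but of the 19 ligands only Wnt5a and Wnt5b were marked in the consensus lists. Among the R-spondins, 3 of 4 were marked in wild-type controls and 2 after C59, and of the LGR genes Lgr4 alone. The difference in count was Rspo2, whose promoter peak was listed in both wild-type replicates and in C59 replicate 1 but not in C59 replicate 2. No gene had a marked promoter in all C59 lists and no wild-type list, or the reverse, which held for 0.128% and 0.452% of all genes. Of the 30 genes with a β-catenin summit, 16 had a marked promoter and 14 did not, among the latter Wnt10a, Wnt6, Wnt2b and Rspo1 with their strong summits.

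The labelled tissue was checked by its markers. All 10 promoters of forelimb mesenchyme markers were marked in both treatments, Tbx5 and Prrx1 included. Of 8 ectoderm and ridge markers, 2 were marked in each replicate and 1 in each consensus list. The marked gene was Epcam in the wild-type consensus and Cdh1 in that of C59, whereas Fgf8, Krt14 and Wnt7a were unmarked in both. Of the hindlimb markers Tbx4 was marked and Pitx1 unmarked in both treatments. Endothelial markers were marked for 1 of 4 in each wild-type replicate and 2 of 4 in each C59 replicate (0 and 2 in the consensus lists). Neural markers were marked for 0 of 4, muscle precursor markers for 1 of 4 and blood markers for 2 of 4 in the consensus lists of both treatments. In such bulk chromatin, fewer cells of a type and less signal per cell cannot be told apart, and the part of cell composition in these values was not tested.

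Promoter coverage over the background of the library could be compared for 18 genes with a promoter summit in all 4 replicates. The log2 ratio of C59 over wild-type controls had a median of -0.06, from -0.33 to 0.33, beside a median of -0.11 over 11089 genes, and is to be read against that shift. Wnt5b, with 58.4 and 55.5 times background for DMSO and 49.8 and 41 for C59, and Fzd2, Ryk and Lgr4 were higher in both wild-type replicates than in both C59 replicates. These 4 of 18 (22.2%) compare with 36.7% of all genes. The Fzd8 promoter, with 13.4 and 10.4 for DMSO and 14.5 and 15.1 for C59, was the 1 gene (5.56%) higher after C59 on this scale, against 10.6% of all genes. The balance turned when the same peaks were measured as fold enrichment over the local expectation, on which the median log2 ratio was 0.07 for the 18 genes and 0.0 for all genes. On that scale 2 genes, Wnt5b and Lgr4, were higher in wild-type controls (11.1%, with 19.7% of all genes), and 5 genes, Fzd1, Fzd3, Fzd6, Fzd8 and Fzd10, were higher after C59 (27.8%, with 20.9% of all genes). Fzd10, for example, had 6.17 and 6.58 for DMSO and 8.49 and 7.37 for C59. Wnt5b, Lgr4 and Fzd8 thus separated in the same direction on both scales, and the direction for the set as a whole depended on the scale. The scales measure the same peaks in the same libraries, so separation on both is not independent evidence for these genes. The share of all genes that separated on both scales was not computed. The highest coverage was at Lrp6, with 215 and 223 for DMSO and 225 and 198 for C59.

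**Figure D4:**
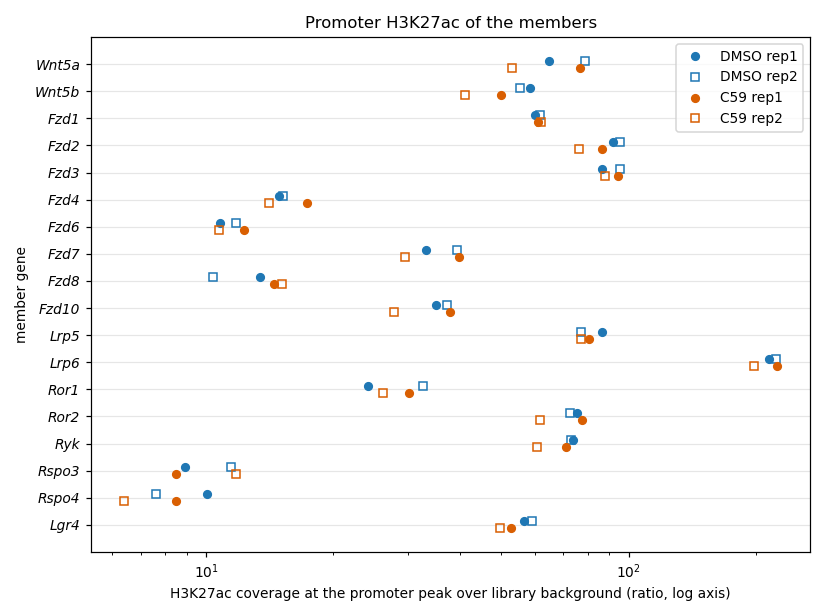
H3K27ac coverage at the promoter peak, as a ratio to the background coverage of the same library on a log axis, for the 18 genes with a promoter summit in all 4 replicates, with DMSO in blue, C59 in orange, filled circles for replicate 1 and open squares for replicate 2. Values differ far more between genes, from 6.39 at Rspo4 to 225 at Lrp6, than between treatments of a gene.

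Numbers of H3K27ac summits separated the treatments at some genes. Of 39 genes with a summit in any replicate, Wnt3a, Wnt5a, Wnt5b, Wnt7b, Wnt9a, Fzd3, Fzd10, Rspo3 and Lgr4 (23.1%) had more in both wild-type replicates, and Wnt3, Fzd6, Lrp5 and Ror2 (10.3%) had more after C59, compared with 12% and 5.04% of all genes. Fzd10 had 7 and 8 summits in the DMSO replicates but 4 and 5 in the C59 replicates. It kept this separation under each of the 4 other ways of counting tried, a feature noted after the values were seen. These ways of counting use the same libraries, and the share of all genes that kept a separation under all of them was not computed. Lrp5 had 8 and 11 for DMSO and 15 and 13 for C59, and Ror2 had 18 and 20 and then 21 and 25. When summits of 1 peak region were counted once, 4 genes were higher in wild-type controls, namely Wnt3a, Wnt9a, Fzd3 and Fzd10, and Fzd2 alone was higher after C59. These shares, 10.3% and 2.56%, were near the 8.67% and 3.88% of all genes counted in that way. Most of the separations by summit number were thus not kept in this count, and the reason was not tested.

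Another 41 genes of the pathway, from secretion to the nucleus, were measured in the same way. A wild-type β-catenin consensus summit lay near 29 of them, beside 43.5% of all protein-coding genes. Both wild-type replicates exceeded both C59 replicates at 34, beside 49.0% of all protein-coding genes. All 8 nuclear factors had summits, with a fold enrichment of up to 20.2 at Lef1, which encodes a TCF/LEF factor, and 12 of 16 secreted antagonists did, with up to 26.2 at Dkk2. Znrf3, whose product clears Frizzled receptors, reached 19.5, whereas Rnf43, with the same role, had 0 and 3 summits in the wild-type replicates and none in the consensus. Promoter H3K27ac was more common than at the ligands and receptors, with 32 of these 41 genes in wild-type controls and 30 after C59. Over all protein-coding genes the shares were 52.5% and 51.4%. β-Catenin summits were listed after C59 at 2 of the 41, beside 1.34% of all protein-coding genes. Axin2, a feedback inhibitor used as a readout of WNT activity, had 9 summits in each DMSO replicate and 2 in each C59 replicate, and Tcf7l2 had 9 and 10 and then 0 and 1.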

How the data were processed

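β-Catenin and H3K27ac ChIP-seq peak lists of DMSO- and C59-treated forelimb buds were used (8 replicate lists and 4 consensus lists). No list comes with the 4 input samples, which were left out. The authors trimmed reads with cutadapt 4.1 per the labels, mapped them with Bowtie2 2.4.5, called summits with MACS2 2.2.7.1 without input, and made consensus lists from both replicates with duplicates removed (Picard 2.27.4). The deposited lists give the fold enrichment of each summit, a ratio over expected coverage, together with its p-value and q-value as −log10. They count no reads, so fold enrichment and p were solved for the fragments at the summit and those expected, within 0.01 of the deposited −log10 p, and the lowest expected coverage gives the depth.

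Genes and TSSs came from GENCODE M21 on GRCm38, and 0 deposited rows reached past a chromosome end. The methods remove wild-type consensus β-catenin summits in blacklisted regions. That step was not repeated, and its effect on the shares of summits and genes with a C59 peak was not tested. Summits were assigned to the nearest of the listed gene bodies. Groups were compared by counts per replicate and by whether replicate values overlapped, beside the share over all protein-coding genes, without a test. Wilson intervals at 95% cover counting error only. Replicates are described as biological, each from pooled buds. The genes and lists were chosen with earlier results of these data known. Described in full were the 12 genes with the strongest assigned wild-type β-catenin summit, any gene with a C59 β-catenin summit, and any whose promoter H3K27ac call differed in both replicates and the consensus (0 genes for both of these last rules), and sequences were printed for the 8 of the 12 with the strongest core-bearing summits. Alternatives comprised each replicate alone, a −log10 q of at least 5, other gene windows, TSS limits and motif windows, another core and regions in place of summits. The C59 −log10 p limit, the window around the 5′ end and promoter fold enrichment were added after the data were seen. Functions were tested on simulated data. The software was matplotlib 3.10.9, scipy 1.17.1, pandas 2.3.3, numpy 2.4.6 and Python 3.11.15.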

Additional observations from a re-analysis of the deposited data

How the results depend on the processing

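Of 58 alternative values of 11 results, 38 stayed within 1.5 times the count or, for the share, within the spread between replicates, and 20 did not. After C59 the β-catenin count near the 41 genes was 0 in each single replicate and also with a window of 100 kb. The stricter q, the window of 10 kb and counting regions once could only return 0 from a count of 0. Those fixed values are among the 38 and say nothing on how the result depends on the processing. The wild-type count of 90 summits was 56 with a window of 10 kb, 56 with 50 kb to either side of the 5′ end, and 108 to 140 in the single replicates. The 172 H3K27ac summits of wild-type controls became 92 at 10 kb, 270 at 100 kb and 111 when regions were counted once, and the 179 of C59 became 104, 275 and 114. The share of β-catenin windows with a core, 28.9%, was 23.3% in 100 bp windows, 34.4% in 400 bp windows, 15.6% for ATCAAAG alone, 32.1% with a gene window of 10 kb, 31.3% with one of 100 kb, and 23.6 to 25.9% in the single replicates. The 13 genes whose H3K27ac counts separated the treatments became 8 at a −log10 q of at least 5 (4 higher in each treatment, beside 9.70% of all genes higher in DMSO and 4.60% in C59) and 5 when regions were counted once (beside 8.67% and 3.88%). With promoter H3K27ac as fold enrichment in place of coverage, genes higher in both DMSO replicates went from 4 to 2 and genes higher in both C59 replicates from 1 to 5. No paired analysis was possible because the results come from peak lists without a test. The β-catenin replicate lists differ in their p limit: where only background was expected, a summit needed 8 fragments in the DMSO replicates and 11 in the C59 replicates. For the consensus lists the weakest listed summit corresponded to 11 fragments in DMSO and 20 in C59. Their lowest −log10 q was 1.335 and 4.82, so the 20 describes the weakest summit kept and need not be a limit of calling. Background coverage of these lists was 3.07 and 3.605 fragments. Counting regions once left the β-catenin counts at 87 in wild-type controls and 0 after C59, whereas the H3K27ac counts and separations changed as given above.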
